A study of Mus musculus with 6 samples.

Results

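The hnRNPs and other splicing regulators described here are 41 mouse genes, taken by symbol from a list of names, of 25351 genes with a symbol in the expression table. They comprise 20 genes named Hnrnp and 21 relatives or other RNA-binding regulators of splice site choice, namely Syncrip, Raly, Ptbp1, Ptbp3, Pcbp1, Pcbp2, Celf1, Celf2, Mbnl1, Mbnl2, Mbnl3, Elavl1, Khdrbs1, Qk, Ewsr1, Taf15, Tia1, Tial1, Rbm39, Rbm25 and Rbm5. All 41 passed the filter on low values, and 39 of them also had splicing events with enough reads to test (Hnrnpa0 and Pcbp1 had none). Heterogeneous nuclear ribonucleoproteins (hnRNPs) coat nascent transcripts and, with partners such as the PTB, CELF and MBNL proteins, strengthen or block the recognition of nearby splice sites by the spliceosome. Many of these genes control their own output by splicing, through "poison" exons that bring in a premature stop codon and send the transcript to nonsense-mediated decay. In T cells hnRNPLL, PTBP1 and CELF2 are known for steering exon choice during activation.

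Gene expression and splicing were measured by paired-end RNA-seq of CD4+ CD8- T cells sorted from pooled spleen and peripheral lymph nodes, in 3 Control and 3 cKO libraries. The cKO animals were U5-52Kf/f CD4-Cretg, so that Cre, driven by Cd4 regulatory sequence from the thymus onwards, removed the floxed gene Cd2bp2 (U5-52K), a component of the U5 snRNP. Of the Control libraries, 2 came from U5-52Kwt/f CD4-Cretg animals, which carry Cre and 1 floxed allele, and 1 from U5-52Kf/f CD4-Cre- animals, which carry no Cre. The study's methods give male mice of 8 to 12 weeks for its lymphocyte preparations and no separate age for the sequenced animals. The comparison asks whether loss of this U5 snRNP assembly factor is accompanied by a change in the level or the splicing of the regulators described here. Because whole populations were sequenced, less RNA of a gene per cell and fewer cells expressing it cannot be told apart.

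Between 56995121 and 82286366 reads fell in genes per library. Cd2bp2 stood at 2624, 2602 and 2612 normalized counts in Control and 884, 874 and 738 in cKO, which is 31.8% of Control (limma, adjusted p = 0.00137). Summed CD4 T cell markers ranged from 534161 to 622897 in Control and from 504752 to 554496 in cKO. The cKO library 1 stood apart with a myeloid marker sum of 79075 and a cell cycle marker sum of 14167, against at most 37407 and 5770 in the other 5 libraries. B cell marker sums were 9044 to 12012 in Control and 4301 to 8060 in cKO, and CD8 or cytotoxic marker sums 5665 to 7929 and 5425 to 6697. Erythroid marker sums were high in Control library 3 (4063) and cKO library 1 (3076) and at most 484 elsewhere. Control library 3 is the 1 without Cre. The part of these differences in the results below was not tested.

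The regulators spanned a 208-fold range of level, given here as normalized count per kilobase of merged exons so that genes of different length can be set side by side. Hnrnpf, which binds runs of G, had the highest Control mean with 29674 per kb, followed by the poly-C binder Hnrnpk with 21198, the FET family gene Ewsr1 with 11904 and Mbnl1 with 11351. Hnrnpa2b1 (8144) and Raly (7403) came next, and their Control libraries overlapped. The lowest levels were those of Qk with 143, Hnrnpul2 with 150 and Hnrnpd with 201 per kb. Within families the order was uneven. Mbnl1 had 11351 per kb against 448 for Mbnl2 and 358 for Mbnl3, while Ptbp3 (2197) and Ptbp1 (2118) overlapped, as did Celf1 (1556) with neighbouring Hnrnpdl (1552). Of the 40 neighbouring pairs in this order, 27 overlapped between their Control libraries and could not be ranked.

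**Figure D1:**
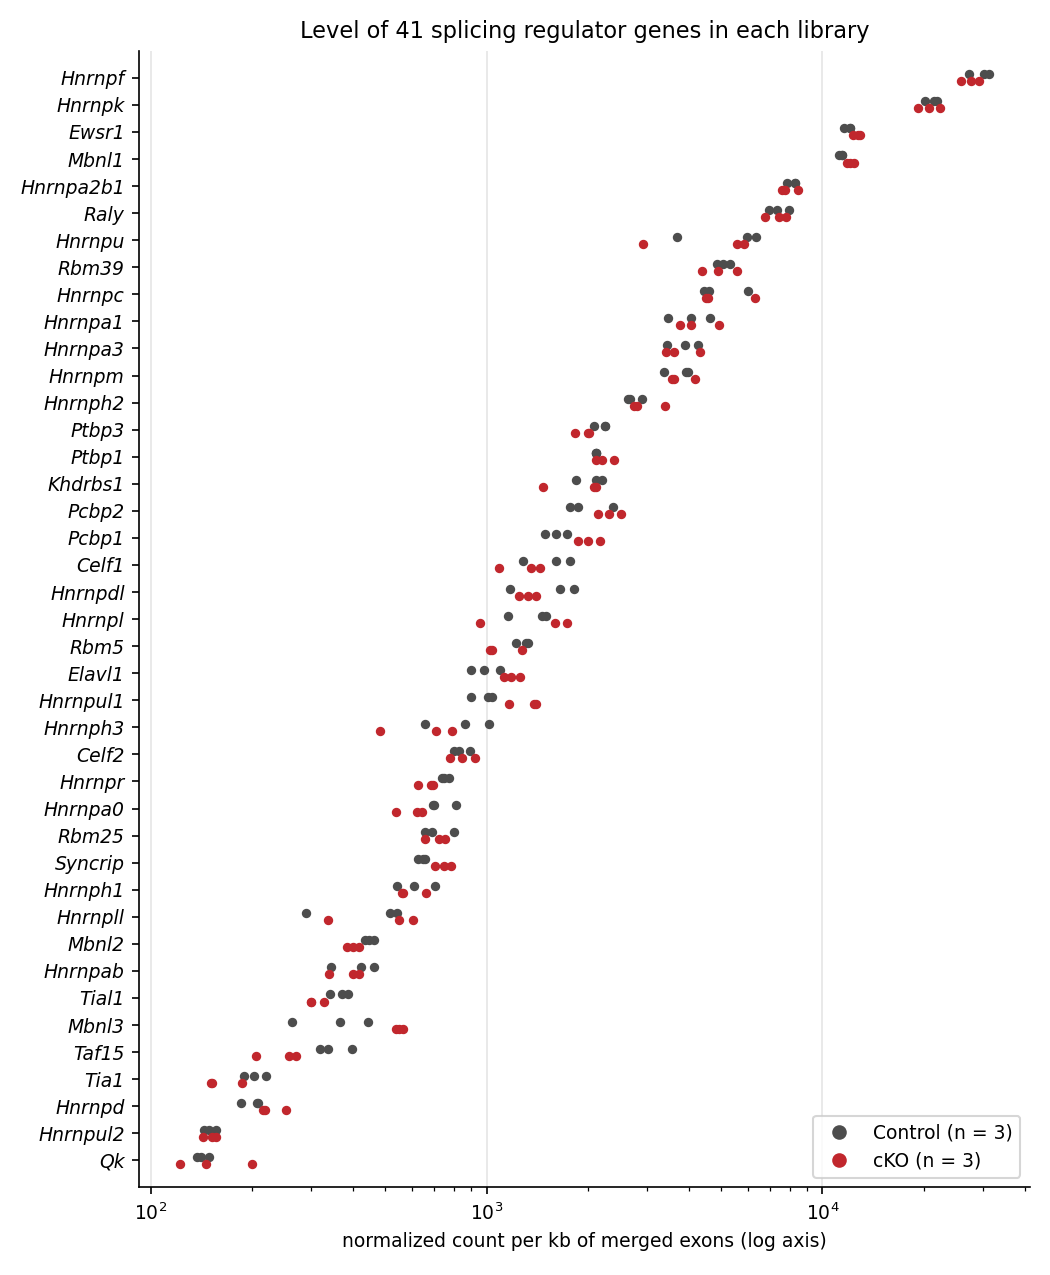
Normalized count per kilobase of merged exons (log axis) for the 41 genes, ordered by Control mean, with 1 point per library (Control grey, cKO red). Hnrnpf and Hnrnpk lie at 19303 per kb or more in every library and Qk at the bottom, and for most genes the red and grey points intermingle.

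No regulator passed the test for a change in expression. At an adjusted p under 0.05 (limma across 11001 genes) 0 of 41 were counted, against 0.973% of all genes tested, and with a log2 fold change above 1 in size added 0 of 41 against 0.564%. At an unadjusted p under 0.05 there were 9 (22%), of which 5 were higher and 4 lower in cKO, beside 16.7% of all genes. The smallest adjusted p was 0.137, for Hnrnpul1. The edgeR quasi-likelihood test on the whole reads also counted 0, beside 112 of 11001 genes, and no tool put any of the 41 past the fold threshold. DESeq2 counted 3 of 41 (Hnrnpul1, Mbnl3 and Pcbp1, all higher in cKO) at an adjusted p under 0.05, beside 8.42% of all genes. The values were precise enough to bound the differences, since the 95% confidence interval of the log2 fold change lay within 1 of 0 for 40 of the 41 genes (all but Mbnl3) and within 0.5 for 25. The median log2 fold change was -0.02 over the 41 genes and 0.01 over all genes tested, and the median size of the change was 0.13 against 0.16.

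**Figure D2:**
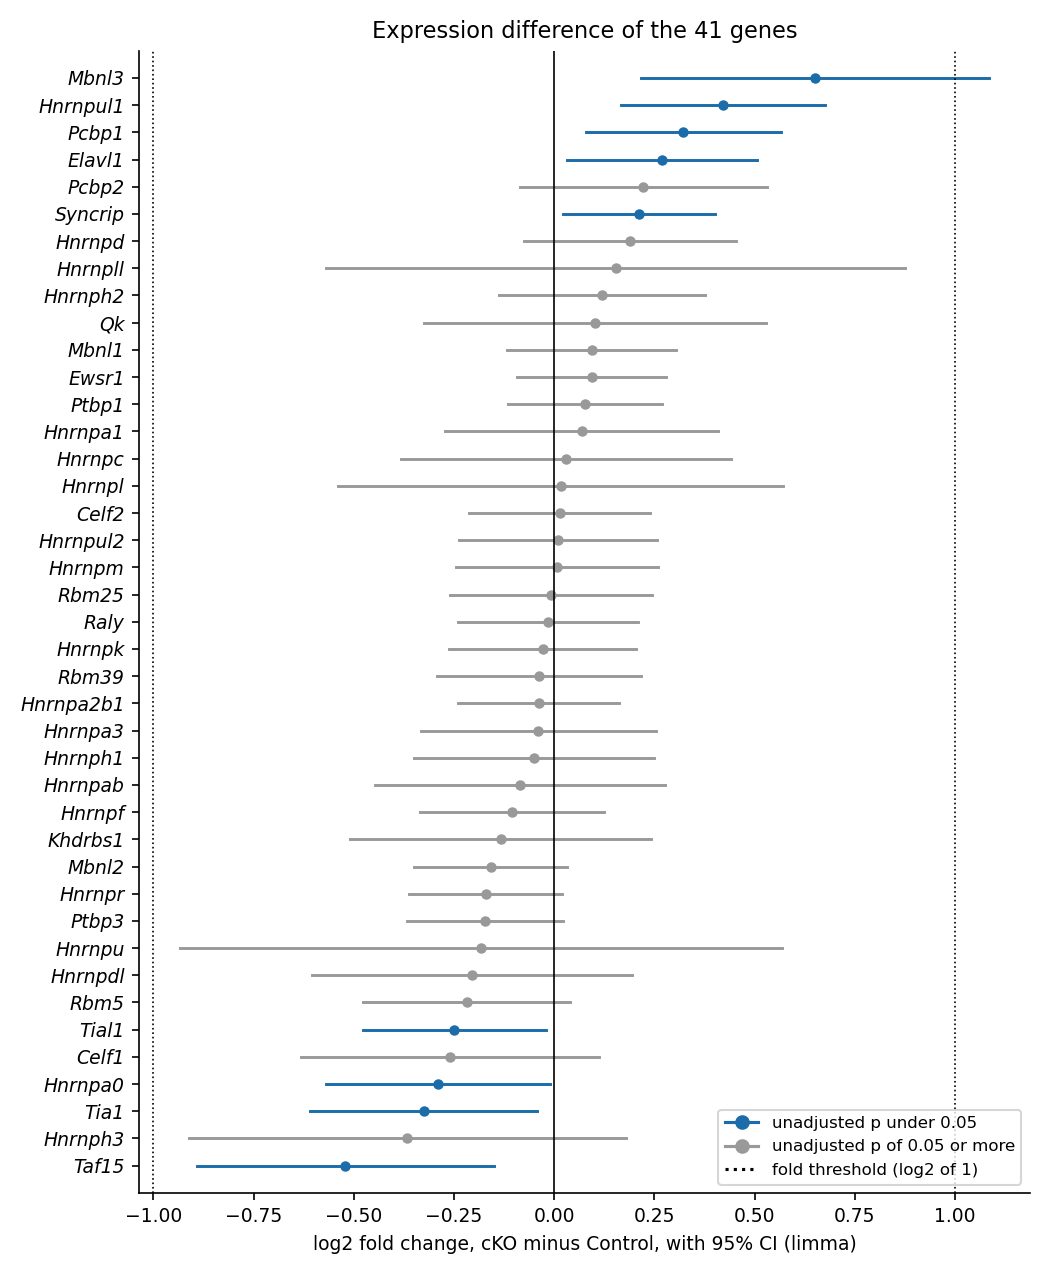
Log2 fold change of each gene, cKO minus Control, with its 95% confidence interval from limma. The points run from -0.52 for Taf15 to 0.65 for Mbnl3, the 9 genes with an unadjusted p under 0.05 are blue, and the interval of Mbnl3 is the 1 that reaches past the dotted line at 1.

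In 8 of the 41 genes (19.5%) all 3 cKO libraries lay above all 3 Control libraries, beside 12.6% of all genes tested. In 7 (17.1%) they all lay below, beside 11.5%. In the other 26 the conditions overlapped. With 3 libraries against 3, these shares are read only beside those of all genes.

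Mbnl3, the X-linked muscleblind gene at chrX:51117269-51206532 (GRCm38), had the largest difference. Its normalized counts were 3213, 3879 and 2306 in Control and 4706, 4925 and 4800 in cKO, a log2 fold change of 0.65 (SE 0.18, adjusted p = 0.161). The cKO libraries were tightly grouped and all above Control, while Control library 3 was the lowest of the 6, and without that library the log2 fold change was 0.45. Mbnl1, which promotes or represses exons by binding near them, had 209612, 213923 and 213832 in Control and 225989, 232867 and 221397 in cKO. These groups did not overlap either, yet the difference was small (0.09, SE 0.09). Mbnl2 had 5541, 5371 and 5197 in Control and 4805, 5020 and 4609 in cKO (log2 fold change -0.16, SE 0.08). The 3 muscleblind genes thus gave 2 positive values and 1 negative value, none past the test.

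Among the hnRNPs proper, Hnrnpul1, an hnRNP U-like protein linked to the DNA damage response, had 8737, 8961 and 7794 normalized counts in Control and 10062, 11953 and 12188 in cKO. Every cKO library lay above Control, with a log2 fold change of 0.42 (SE 0.11, adjusted p = 0.137). Syncrip (hnRNP Q), which acts in translation and RNA stability as well as splicing, had 7966, 8047 and 7690 in Control and 9629, 8645 and 9193 in cKO (0.21, SE 0.08). Its close relative Hnrnpr had a log2 fold change of -0.17 (SE 0.08), with all cKO libraries below Control. Hnrnpa0, a single-exon A/B type hnRNP, had 1853, 1872 and 2173 in Control and 1660, 1445 and 1718 in cKO (-0.29, SE 0.12). Hnrnph3 had 3196, 2717 and 2068 in Control and 1515, 2484 and 2226 in cKO, so its conditions overlapped (-0.37, SE 0.23). The lowest library was cKO 1, and without it the value was -0.15.

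The KH-domain proteins that bind poly-C were Hnrnpk, Pcbp1 and Pcbp2. Pcbp1, an intronless gene at chr6:86524492-86526321, had 2734, 3185 and 2950 normalized counts in Control and 3986, 3433 and 3673 in cKO (0.32, SE 0.10). Pcbp2 had 9754, 12352 and 9233 in Control and 11200, 12030 and 13107 in cKO (0.22, SE 0.13), with 1 Control library inside the cKO range. Hnrnpk had a log2 fold change of -0.03 (SE 0.10). Elavl1 (HuR), which stabilises mRNAs with AU-rich elements, had 9310, 11338 and 10188 in Control and 12281, 11720 and 13063 in cKO, all above Control (0.27, SE 0.10).

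Lower values were found for Taf15, a FET family protein, with 1164, 930 and 986 normalized counts in Control and 602, 755 and 792 in cKO (log2 fold change -0.52, SE 0.16, adjusted p = 0.178). All 3 cKO libraries were below Control, and without cKO library 1 the value was -0.40. The other FET member, Ewsr1, had a value of 0.09 (SE 0.08). Tia1 and Tial1 encode paired U-rich binders that help the U1 snRNP to weak 5′ splice sites. Tia1 had 3470, 2999 and 3197 in Control and 2399, 2951 and 2386 in cKO (-0.33, SE 0.12). Tial1 had 2564, 2678 and 2368 in Control and 2259, 2067 and 2075 in cKO (-0.25, SE 0.10). Both were lower in all 3 cKO libraries than in any Control library, with adjusted p = 0.244 and 0.265.

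The PTB and CELF pairs gave mixed values. Ptbp1, the main polypyrimidine tract binder of dividing cells, had 10012, 10045 and 10060 normalized counts in Control and 10424, 10038 and 11369 in cKO (0.08, SE 0.08). Its paralog Ptbp3, abundant in blood cells, had 15640, 16812 and 16848 in Control and 15059, 13710 and 15003 in cKO, all below Control (-0.17, SE 0.08). Celf1 had 13619, 14968 and 10846 in Control and 9196, 12195 and 11472 in cKO (-0.26, SE 0.16), with a value of -0.14 without cKO library 1 and -0.39 without Control library 3. Celf2 had 21398, 23121 and 20777 in Control and 23934, 21920 and 20150 in cKO (0.01, SE 0.10). Only the Ptbp3 libraries of these 4 genes were separate between conditions.

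**Figure D3:**
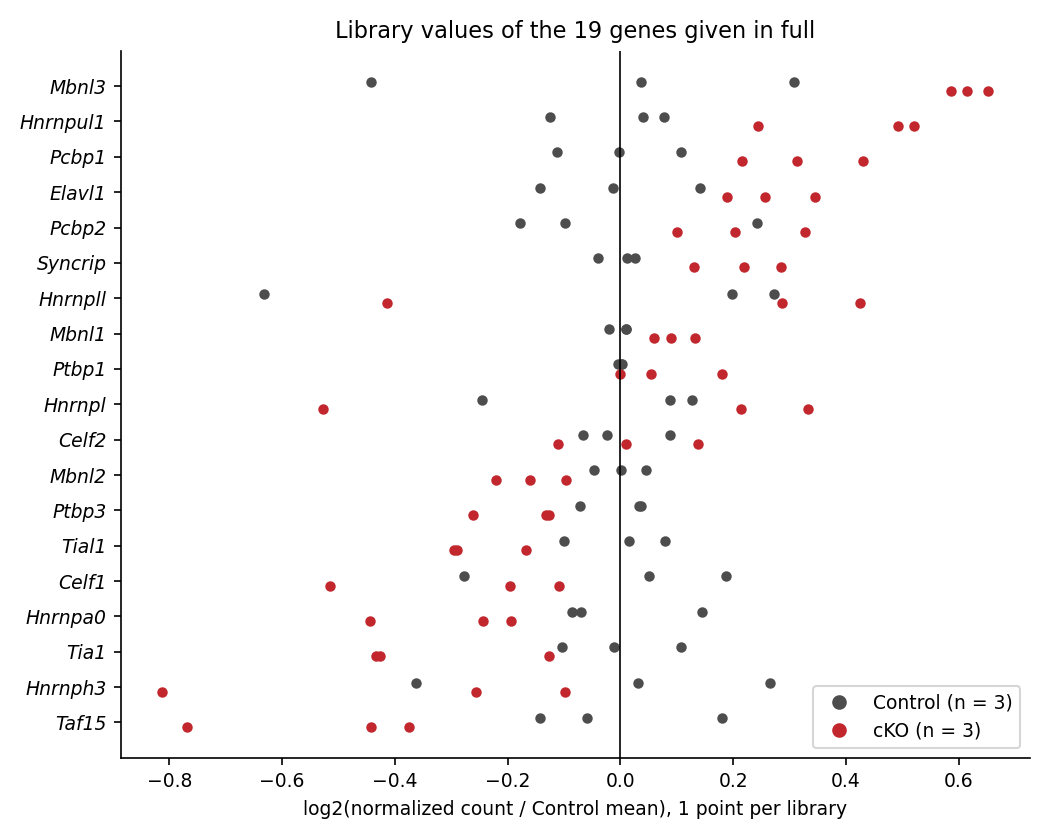
Log2 ratio of each library's normalized count to the Control mean for the 19 genes given library by library, 1 point per library (Control grey, cKO red). Mbnl3, Hnrnpul1, Pcbp1, Elavl1, Syncrip and Mbnl1 have all red points to the right of the grey ones, Taf15, Tia1, Hnrnpa0, Tial1, Ptbp3 and Mbnl2 to the left, and Hnrnpl and Hnrnpll each have 1 low point in both conditions.

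Hnrnpl and Hnrnpll, which bind CA-rich RNA and repress the variable exons of Ptprc (CD45) in T cells, varied more within a condition than between them. Hnrnpll had 6340, 6016 and 3387 normalized counts in Control and 3939, 7047 and 6399 in cKO (log2 fold change 0.15, SE 0.30). Hnrnpl had 8707, 8946 and 6909 in Control and 5683, 9498 and 10314 in cKO (0.02, SE 0.23). The low libraries were Control 3 and cKO 1 for both genes. The same 2 libraries were lowest for the scaffold protein gene Hnrnpu, with 42753 and 33944 against 64510 to 73690 in the other 4, and highest for Hnrnpc, with 25921 and 27278 against 19166 to 19877. Without cKO library 1 the log2 fold change of Hnrnpl was 0.28, of Hnrnpll 0.41 and of Hnrnpu 0.14, and without Control library 3 they were -0.10, -0.14 and -0.43. For Hnrnpc the log2 fold change was 0.03 with all libraries, -0.13 without cKO library 1 and 0.17 without Control library 3. These are the 2 libraries with high erythroid marker sums, and the part of that difference was not tested. Hnrnpl and Hnrnpll were named by the rule, whereas Hnrnpu and Hnrnpc were added after their values were seen.

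The regulators not named so far all overlapped between conditions except Hnrnpd, with a log2 fold change of 0.19. The overlapping genes ranged from -0.22 for Rbm5, a regulator of apoptosis gene splicing, to 0.12 for Hnrnph2. Without cKO library 1 Hnrnph2 stood at 0.02, Khdrbs1 at 0.04 in place of -0.13, and Qk at -0.09 in place of 0.10. Hnrnpa1 (0.07), Hnrnpa2b1 (-0.04), Hnrnpa3 (-0.04), Hnrnpm (0.01), Raly (-0.02), Rbm25 (-0.01) and Rbm39 (-0.04) all lay close to 0. Hnrnpa1 and several relatives have near-identical copies elsewhere in the genome, so their counts may hold reads from those copies. Of 80 other splicing regulators (SR proteins, RBM proteins, U2AF and others), 77 could be tested, 0 were higher and 1 was lower at an adjusted p under 0.05 (limma). That gene was Rbmx, the X-linked hnRNP G, with 5474, 5025 and 4592 normalized counts in Control and 2765, 3152 and 2876 in cKO, a log2 fold change of -0.78 (SE 0.10, adjusted p = 0.0248).

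Splicing was read from the inclusion and skipping reads of events that rMATS assembled, as the inclusion level, the length-corrected percentage of reads that include an exon or segment. An event was called at an FDR under 0.01 and a difference of at least 10 percentage points, given as cKO minus Control. Of 539 tested events in 39 of the genes, 7 were called (1.3%) beside 0.465% of 55912 events of all genes, and 31 (5.75%) had an FDR under 0.05 beside 1.95%. The called events lay in Hnrnpc (3), Raly, Hnrnph2, Rbm39 and Rbm25. The skipped exons of these genes were deeper than most, with a median of 994 reads per library against 283 over all genes. Where only skipped exons averaging 500 reads or more per library were counted, 19 of 249 in these genes (7.63%) had an FDR under 0.05, beside 3.35% of 13324. In 355 of the 539 events inclusion moved by less than 1 point.

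By class, each count is followed in brackets by the share over all tested events of that class in all genes. Of 366 skipped exons 5 were called (0.495%), 3 of them with higher inclusion (0.0893%) and 2 with lower inclusion (0.406%). An FDR under 0.05 was reached by 21 of the 366 (1.79%). Of 36 alternative 3′ splice sites 2 were called (0.584%). There were 0 calls among 90 pairs of mutually exclusive exons (0.25%), 25 alternative 5′ splice sites (1.08%) and 22 retained introns (0.181%), where 5, 2 and 1 had an FDR under 0.05. The test lets all events of a class share 1 prior for the spread between values, and that spread rose with read depth. With that prior taken from all tested events, however few the reads of the rarer form, 54 of the 539 had an FDR under 0.05, beside 4.32% of all events. With limma on the logit of inclusion, unweighted, 0 of 539 events were called and 0 had an FDR under 0.05, beside 0 and 53 of 55912 (0.0948%). Of the 7 called events, 3 had an unadjusted p under 0.05 in that fit. With the logit weighted by reads, or with a prior that follows depth, both chosen after seeing the data, 6 of the 7 kept an FDR under 0.01. The exception in both was Hnrnph2.

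**Figure D4:**
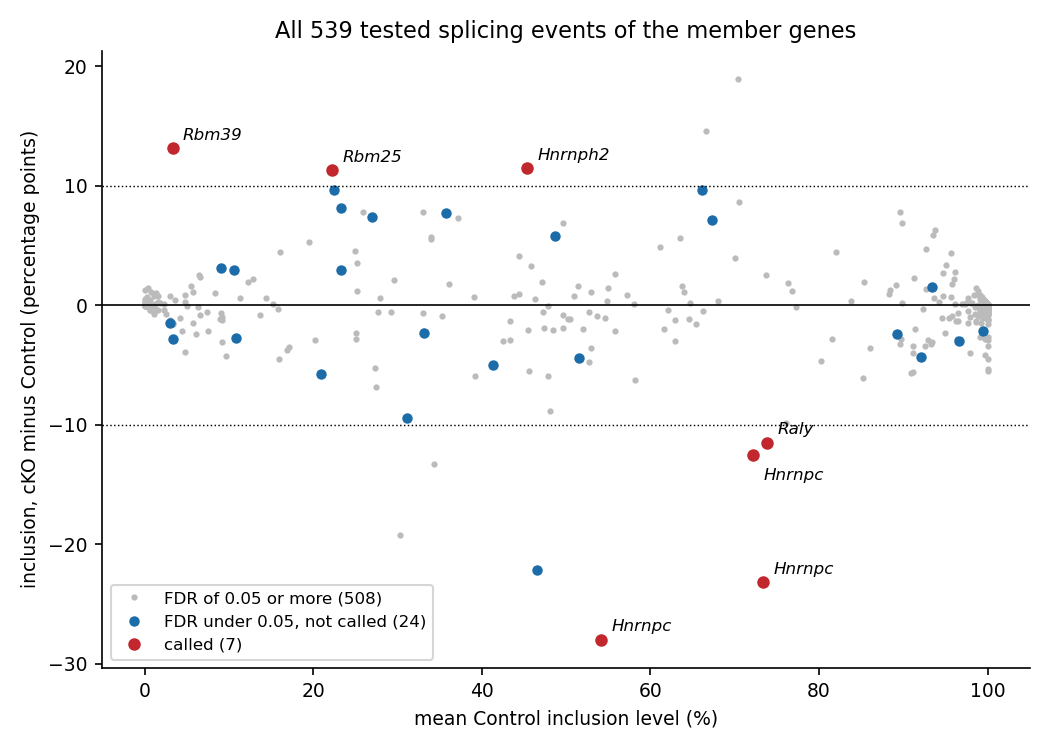
Difference in inclusion (cKO minus Control, percentage points) against the mean Control inclusion level for the 539 tested events, with called events in red and other events at an FDR under 0.05 in blue. The called events range from -28.0 points in Hnrnpc to 13.1 points in Rbm39, and most grey points lie near 0.

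The sequences of the coding segments that the results turn on follow, from GENCODE M21 transcripts (GRCm38), 5′ to 3′ on the gene's strand. The Hnrnpc acceptor region is shown because 3 competing 3′ splice sites lie in it, and its capitals mark the AG that precedes each of the inner acceptors. In the Hnrnpc donor segment capitals mark the GT at the inner 5′ splice site, and in Hnrnpm the GT and AG at the ends of the segment spliced out as an intron. In Rbm39 they mark the stop codon, in Rbm25 the annotated start codon, and in Hnrnpa2b1 the last 24 bases, which also serve as an exon of their own. The exons of Hnrnpk and Mbnl1 are shown whole because each is a complete in-frame cassette.
Hnrnpc acceptors, chr14:52075389-52075436, minus strand: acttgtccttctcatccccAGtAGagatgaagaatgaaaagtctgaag
Hnrnpc donor segment, chr14:52081789-52081827, minus strand: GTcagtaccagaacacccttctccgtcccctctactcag
Hnrnpm segment, chr17:33666530-33666646, minus strand: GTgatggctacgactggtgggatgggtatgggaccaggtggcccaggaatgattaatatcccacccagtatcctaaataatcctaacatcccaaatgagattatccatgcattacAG
Rbm39 exon to its stop codon, chr2:156178881-156178952, minus strand: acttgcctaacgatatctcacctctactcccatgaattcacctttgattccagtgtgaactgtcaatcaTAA
Rbm25 exon, coding part, chr12:83642478-83642519, plus strand: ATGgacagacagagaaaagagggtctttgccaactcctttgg
Hnrnpa2b1 exon, chr6:51464428-51464547, minus strand: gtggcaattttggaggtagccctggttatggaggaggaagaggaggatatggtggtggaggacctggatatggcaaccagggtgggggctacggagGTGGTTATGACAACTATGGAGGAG
Hnrnpk exon, chr13:58396188-58396259, minus strand: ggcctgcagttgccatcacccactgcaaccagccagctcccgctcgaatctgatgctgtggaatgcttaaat
Mbnl1 exon, chr3:60614683-60614736, plus strand: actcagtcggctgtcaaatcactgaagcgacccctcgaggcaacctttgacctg

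The largest change among the 539 events lay at the 3′ splice sites of a coding exon of Hnrnpc, whose protein binds runs of U and keeps cryptic exons out of mRNA. The outermost acceptor gives an exon that is 21 or 24 bases longer than the inner acceptors do, and the inner pair, 3 bases apart, follow the AG dinucleotides in capitals above. All 3 forms keep the reading frame. Against the acceptor 21 bases inside (chr14:52075416-52075436), inclusion of the long form was 54.8, 55.7 and 52.0% in Control and 24.6, 26.0 and 27.9% in cKO, a difference of -28.0 points (FDR 4.63e-37, 1371 to 1862 reads per value). Against the acceptor 24 bases inside (chr14:52075413-52075436) it was 73.9, 75.7 and 70.6% in Control and 49.1, 50.4 and 51.1% in cKO, a difference of -23.2 points (FDR 1.17e-21).

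The Control and cKO values of both events were far apart compared with the spread inside each condition. Reads of the long form numbered 2609 in Control and 1530 in cKO and are the same reads in both events, so these calls are not independent. Between the inner acceptors themselves (chosen after the values were seen) use of the first went from 70.0% ± 1.2 to 74.0% ± 0.908 (mean ± SD over 3 values per condition, as for all values written so below), which did not pass (FDR 0.247). The level of Hnrnpc mRNA had a log2 fold change of 0.03 (SE 0.17).

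The same gene changed at its 5′ end and at the donor that separates the hnRNP C1 and C2 isoforms. A 26-base exon in the 5′ UTR (chr14:52098015-52098040) was included at 67.5, 76.0 and 72.9% in Control and 61.9, 60.2 and 56.7% in cKO, with every cKO value below Control (-12.5 points, FDR 2.73e-08). A 530-base exon with the same 3′ end was included at 20.9% ± 2.20 in Control and 15.2% ± 0.837 in cKO (FDR 0.00112, and 0.0925 with the prior that follows depth). Both exons have the same number of skipping reads, 1098 in Control and 1967 in cKO, so these results are not independent. The inclusion reads of the 530-base exon numbered 1325 and 1600. At the C1/C2 donor, the longer form, with 39 more bases or 13 codons and the isoform C2, was included at 37.2, 35.8 and 34.4% in Control and 38.5, 46.3 and 45.6% in cKO. Those values did not overlap, though 1 cKO value lay close to Control (7.7 points, FDR 5.78e-06, under the 10-point limit). The 277-base exon upstream, paired against the exon that ends at that donor, gave 23.3% ± 2.88 in Control and 31.4% ± 1.60 in cKO (FDR 8.4e-05). Its inclusion reads numbered 1098 in Control and 1970 in cKO, almost exactly the reads that skip the 26-base exon (1098 and 1967). This pairing is therefore not independent of the call in the 5′ UTR and is no separate evidence on the donor. In all, 8 of 23 tested Hnrnpc events had an FDR under 0.05, many of them sharing reads.

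Raly encodes the closest relative of hnRNP C and also binds runs of U. Its 83-base second exon (chr2:154821007-154821089), which lies in the 5′ UTR of 3 coding transcripts, was included at 73.6, 72.7 and 75.2% in Control and 63.7, 62.2 and 61.0% in cKO. The difference was -11.5 points (FDR 3.28e-14, 3281 to 5095 reads per value), and no value overlapped. Near its coding start, the 265-base exon (chr2:154857269-154857533) was set against the 73-base exon that follows in separate events. In one it was included at 27.0% ± 1.85 in Control and 34.4% ± 1.45 in cKO (FDR 5.43e-06). In the other, which holds more reads, it was included at 51.5% ± 2.07 and 47.1% ± 0.335 (FDR 0.0104), the opposite direction for the same pair of exons. Inclusion reads of the first event numbered 2248 in Control and 3839 in cKO. Reads that skip the 83-base exon numbered 2238 and 3834, so the first event is not independent of that call.

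Rbm39, a U2AF-related protein that joins early spliceosomes, had a called exon that is annotated only in a transcript marked for nonsense-mediated decay. The 274-base exon (chr2:156177633-156177906) was included at 2.3, 4.1 and 3.6% in Control and 16.6, 15.1 and 17.6% in cKO. The difference was 13.1 points (FDR 1.33e-17), with 162 inclusion reads over the Control values and 977 over the cKO values. It was measured downstream of a 73-base poison exon (chr2:156178880-156178952) whose in-frame stop codon is printed above, and 4 decay transcripts end their reading frame at that stop. The poison exon itself was included at 49.2, 43.6 and 58.7% in Control and 45.4, 48.7 and 53.8% in cKO, which overlapped (FDR 0.942). A 155-base form of the called exon, added after its values were seen, went from 0.208% to 0.754% (FDR 0.198). Its skipping reads (2705 in Control and 3241 in cKO) equal in number those that skip the poison exon. The 274-base exon was set against other skipping reads (1633 and 1751), so the levels of the 2 forms cannot be compared directly. A 55-base exon nearby (chr2:156176403-156176457), also confined to decay transcripts, gave 44.7, 44.6 and 50.4% in Control and 29.9, 22.6 and 20.7% in cKO (FDR 0.0133) in an event with only 80 to 147 reads per value. The FDR was 0.107, 0.0706 and 0.0938 without Control value 3, cKO value 2 and cKO value 3. In the event with the most reads for that exon, also added afterwards, inclusion was 4.15% ± 1.23 and 3.08% ± 0.970 (FDR 0.692). The level of Rbm39 mRNA differed by -0.04 on the log2 scale (SE 0.11).

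Rbm25, which works with U1-associated LUC7 proteins and alters apoptosis gene splicing, had a 118-base exon (chr12:83642402-83642519) that holds the end of a 5′ UTR and the first 42 coding bases of alternative transcripts, printed above from their start codon. Inclusion was 24.4, 20.5 and 21.8% in Control and 27.0, 37.6 and 36.0% in cKO, a rise of 11.3 points (FDR 1.99e-06). All cKO values lay above Control, 1 of them narrowly, and without cKO value 2 the difference was 9.3 points. A 54-base coding exon of Rbm25, named after its values were seen, went from 99.5% to 97.3% (FDR 0.0322). Rbm5 had a 61-base coding exon (chr9:107755853-107755913) at 91.7, 92.2 and 92.3% in Control and 90.5, 83.9 and 88.8% in cKO (FDR 0.0159, and 0.664 without cKO value 2).

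Hnrnph2, an X-linked binder of G runs, had a 45-base exon in its 5′ UTR (chrX:134602918-134602962). Inclusion was 43.7, 40.6 and 51.8% in Control and 57.7, 52.5 and 60.2% in cKO, so the highest Control and the lowest cKO value lay next to each other. The difference was 11.4 points (FDR 0.00128), and the FDR was 0.0307 with the logit weighted by reads and 0.0267 with the prior that follows depth. Leaving out single values also ended the call, since the difference was 9.05 points without Control value 2 and 9.73 without cKO value 3, and the FDR was 0.0193 without Control value 1. In the 5′ UTR of its relative Hnrnpf, a 60-base exon, likewise named afterwards, went from 67.3% to 74.4% (FDR 0.0198). The exons with the most reads in Hnrnph1 (94.9% and 92.6%) and Hnrnph3 (34.0% and 39.7%) overlapped between conditions, with FDR 0.692 and 0.666.

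**Figure D5:**
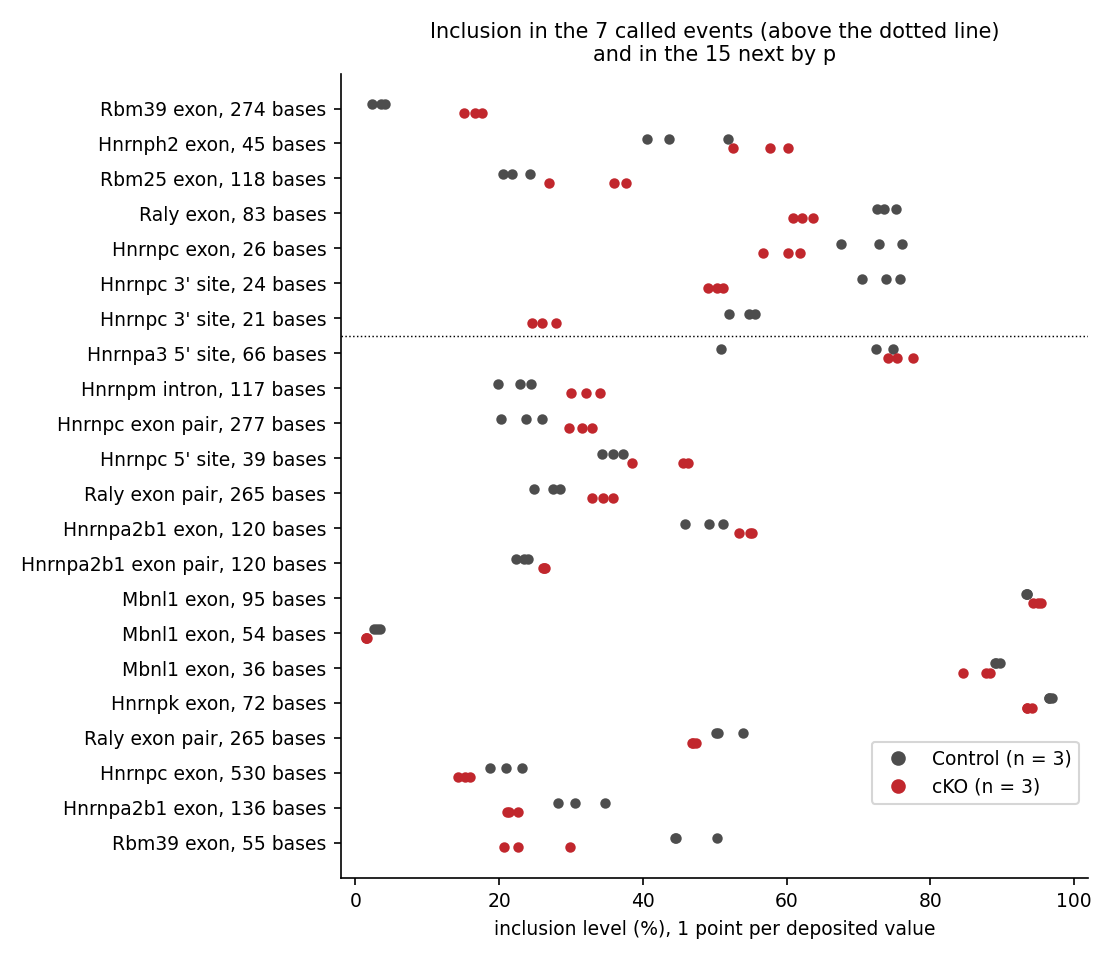
Inclusion level (%) of each deposited value for the 7 called events (above the dotted line) and the 15 events next by p, Control grey and cKO red. The Hnrnpc 3′ site events show the widest separation, from 52.0% or more to 27.9% or less for the 21-base segment, and Hnrnpa3 is the 1 event whose conditions overlap, with a Control value of 50.9%.

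Smaller shifts with tight values were found in exons of several abundant hnRNPs. The 72-base coding exon of Hnrnpk was included at 96.5, 96.6 and 97.0% in Control and 93.4, 93.5 and 94.1% in cKO (-3.0 points, FDR 6.69e-14), with 993 skipping reads over the Control values and 2162 over the cKO values. The 120-base glycine-rich exon of Hnrnpa2b1, 40 codons whose omission gives shorter A2 and B1 isoforms, was included at 45.8, 51.2 and 49.2% in Control and 55.1, 55.0 and 53.3% in cKO (5.8 points, FDR 5.55e-06). That FDR was 0.153 with the prior that follows depth. Paired against the neighbouring 123-base exon it went from 23.3% ± 0.811 to 26.3% ± 0.126 (FDR 0.000231). A 136-base exon in the 3′ UTR of Hnrnpa2b1 (chr6:51461920-51462055), also part of 2 decay transcripts, fell from 30.6, 28.2 and 34.7% to 22.6, 21.1 and 21.4% (-9.4 points, FDR 2.86e-06).

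In Hnrnpm the 117-base segment printed above, which 2 coding transcripts keep and others splice out, was retained at 24.5, 23.0 and 19.8% in Control and 32.1, 34.0 and 30.0% in cKO. The values did not overlap, and the difference of 9.6 points (FDR 0.00122) was just under the 10-point limit. In Hnrnpa3 the longer form of an exon with an alternative donor, 66 bases longer (chr2:75659324-75659389), was used at 50.9, 74.8 and 72.4% in Control and 77.6, 74.1 and 75.4% in cKO (9.6 points, FDR 0.00694). Here 1 Control value stood far from the rest and the conditions overlapped, and without it the difference was 2.1 points (FDR 0.828).

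Mbnl1 gave 5 events with an FDR under 0.05 of 92 tested, none of them over 10 points. Its 54-base exon, known for regulation by MBNL proteins themselves and for nuclear localisation, was included at 2.6, 3.0 and 3.4% in Control and 1.6, 1.5 and 1.5% in cKO (-1.5 points, FDR 1.11e-08, 4872 to 9146 reads per value). The 36-base exon was included at 89.3% ± 0.407 and 86.9% ± 2.04 (FDR 0.0114) and the 95-base exon at 93.4% ± 0.144 and 94.9% ± 0.555 (FDR 0.00237). The FDR of both was above 0.05 with the prior that follows depth (0.264 and 0.100), whereas it was 3.9e-07 for the 54-base exon. The equivalent 95-base exon of Mbnl2 stood at 27.6% ± 2.85 in Control and 27.1% ± 6.39 in cKO (FDR 0.992).

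In each further gene for which the naming rule gave an exon, the most-read skipped exon with a Control inclusion of 5 to 95% overlapped between conditions. The rule did not select poison or autoregulated exons. Those of Ptbp1, Ptbp3, Celf2 and Hnrnpd are annotated as coding and that of Tial1 as 5′ UTR. An exon with a Control inclusion under 5%, such as the called exon of Rbm39, could not be chosen in this way. Ptbp1 included its 78-base coding exon at 45.8% ± 4.29 in Control and 49.1% ± 0.769 in cKO (FDR 0.672), and Ptbp3 its 34-base exon at 11.3% ± 1.36 and 11.9% ± 3.70 (FDR 0.975). The decay-linked exons of Hnrnpdl (39.2% ± 6.80 and 33.2% ± 6.18, FDR 0.417), Hnrnpll (15.8% ± 1.74 and 15.5% ± 7.65, FDR 0.810) and Tia1 (19.5% ± 8.33 and 24.8% ± 2.93, FDR 0.692) overlapped as well. Hnrnpa1 included its 1711-base decay-linked exon at 33.9% ± 4.07 and 39.5% ± 6.22 (FDR 0.670). Celf2 (76.3% ± 0.223 and 78.1% ± 2.22, FDR 0.692), Hnrnpd (54.6% ± 3.32 and 53.5% ± 2.48, FDR 0.927) and Tial1 (9.15% ± 0.764 and 6.09% ± 2.67, FDR 0.692) did not pass either. Qk had no skipped exon with a Control inclusion between 5 and 95%.

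The annotation of the exons was not used to choose them. Of 243 distinct skipped exons tested in these genes, 167 were fully coding, 26 partly coding, 18 in the 5′ UTR, 1 in the 3′ UTR, 24 in decay transcripts only and 7 in non-coding transcripts only. An FDR under 0.05 was reached by 7 of the 18 5′ UTR exons (4.47% of such exons over all genes), 8 of the 167 coding exons (1.57%), 2 of the 26 partly coding exons (2.13%) and 2 of the 24 decay exons (2.64%). The single 3′ UTR exon, that of Hnrnpa2b1, also reached it (6.67% of only 15 such exons) and none of the 7 non-coding exons did (2.33%). Over all genes 559 of 30681 distinct exons had an FDR under 0.05. Of the 5 called exons 3 were in a 5′ UTR (Hnrnpc, Raly and Hnrnph2), 1 was partly coding (Rbm25) and 1 was in a decay transcript (Rbm39), and none was fully coding. The groups differed in their starting point, since 12 of the 18 5′ UTR exons but 30 of the 167 coding exons had a Control inclusion between 5 and 95% (41% and 10.4% of such exons over all genes), and an exon near 0 or 100% has little room to move.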

How the data were processed

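CD4+ T cell RNA from 3 Control and 3 cKO animals was sequenced as paired-end reads. Per the study's methods and the submitters' processing notes, reads were trimmed with cutadapt and aligned to GRCm38 with STAR, and gene counts came from featureCounts. Nothing read here states the strand setting. The deposited expression signal is the authors' read count per gene divided by a DESeq2 size factor. Dividing each library by the value of 1 read gave whole reads in 100% of values (tolerance 0.01), and edgeR on these reads called 61 of 11001 genes. Splicing events were counted by the authors with rMATS from junctions and exons. These are deposited counts of inclusion and skipping reads, 3 values per condition with no library names. The authors' own fold changes, p-values and FDRs were not used, and 0 columns of per-sample values were left without a sample.

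Expression was tested with limma 3.58.1 (R 4.3.3, variance trend) on log2(normalized count + 1) over named genes averaging 100 or more in at least 1 condition, so fold changes are on that scale. P-values are two-sided, adjusted by Benjamini-Hochberg over all genes tested, and a call needed an adjusted p under 0.05 and a log2 fold change above 1. Alternatives used edgeR 4.0.16 and DESeq2 1.42.0. Events averaging 20 reads or more per value in each condition entered a quasi-binomial model whose dispersion was moderated with limma (prior from events whose rarer form had at least 5 reads, floor of 1), adjusted within each class. Since inclusion and skipping reads are not independent molecules, the model allows for spread between values of a condition. That spread was mostly the 1 shared by the class, and the p-values rest less on an event's own values. The prior counted for 10.6 (retained introns) to 123 (alternative 3′ splice sites) degrees of freedom, more than the values of 1 event give. The limma, edgeR and quasi-binomial fits were first tested on simulated counts, negative binomial for genes and with the quasi-binomial model's shared spread for events. This checks the computation of these fits and not whether their models hold. The other settings and the annotation steps were not tested in this way.

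Named genes were the 6 largest rises and falls and the related pairs. Named events were those called, the next 15 by p under an FDR of 0.05, and for 18 genes the most-read exon with Control inclusion of 5 to 95%, and exceptions are stated. The members and lists were chosen with earlier results of these data known. Coordinates and annotation are GENCODE M21. Introns, protein sequences and UTR sequences were not used here.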

Additional observations from a re-analysis of the deposited data

How the results depend on the processing

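Limits set by depth and design are these. With 3 libraries per condition the median SE of a log2 fold change was 0.11, and changes around 0.5 could be missed. Mbnl3 (0.65, SE 0.18), Taf15 (-0.52, SE 0.16) and, among the other regulators, Sart1 (0.55, SE 0.09) did not pass an adjusted p under 0.05 in limma. Rbmx (-0.78, SE 0.10) did. The splicing values carry no library names, so a value left out cannot be tied to a library, and many events of a gene share reads. No paired analysis was possible because the labels number the libraries consecutively and share no number between conditions. For the expression counts, 0 of these genes were called in every setting tried, and 0 had an adjusted p under 0.05 in every setting except DESeq2, which gave 3, beside 926 of 11001 genes. For splicing, the 7 calls were 7 with minimums of 10 or 50 reads or with shared exons counted once, 8 with the prior over all events, 0 with the unweighted logit, and 31 at an FDR under 0.05 with no minimum difference. Over all 55912 events the 260 calls became 445 with the prior over all events and 0 with the unweighted logit. Leaving out 1 value gave 6 to 9 calls, beside 186 to 258 over all events. The 31 events at an FDR under 0.05 became 54 with the prior over all events and 0 with the unweighted logit, and 23 to 35 with 1 value left out. Over all events 1091 became 2417 and 53, and 688 to 1000 with 1 value left out. With the weighted logit and the depth-following prior, both added after seeing the data, there were 7 and 6 calls and 29 and 22 events at an FDR under 0.05, of which 24 and 21 were among the 31. Over all events these settings gave 217 and 261 calls, and 1093 and 1218 events at an FDR under 0.05. The cause of these differences was not tested. Signs turned in 3 of the 19 genes named by the rule and in 5 named events, none of which had passed a test. They also turned in genes outside the rule, among them Hnrnpu, Hnrnpc, Khdrbs1 and Qk, whose values are given above. Under quantile normalization the log2 fold change was -0.0224 for Hnrnpl and -0.0233 for Celf2. With 1 library left out it ran from -0.15 to 0.28 for Hnrnpl, from -0.14 to 0.41 for Hnrnpll and from -0.049 to 0.0751 for Celf2. With 1 value left out the difference in inclusion ran from -2.48 to 0.783 points for the Hnrnpd exon, from -4.46 to 3.05 for Hnrnpll, from -1.46 to 2.11 for Ptbp3, from -2.93 to 3.08 for Mbnl2 and from -4.64 to 2.90 for the 73-base Rbm39 exon.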
